A study of Homo sapiens with 6 samples.

Results

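The genes described here are 10 members of the WNT pathway in MRC5 fibroblasts: the ligands WNT2, WNT5A and WNT5B, the secreted antagonists SFRP1, DKK1, DKK2 and DKK3, the receptors FZD8 and ROR2, and the feedback gene AXIN2. They were taken by gene symbol, and all 10 were found once among the 25368 symbols of each table. MRC5 is a line of human embryonic lung fibroblasts, immortalised with an hTERT lentivirus, so every library shares that background. The first table holds cells infected for 2 h with an adenovirus and then cultured for 3 days. The adenovirus carried an empty vector (control), FLAG-tagged wild-type JUN (JUN WT) or JUN whose JNK phosphorylation sites were mutated to alanine (JUN AA). The second table holds untreated MRC5, induced CAFs (iCAFs, MRC5 kept for 7 days in medium conditioned by MDA-MB-231 breast cancer cells) and iCAFs given 1 µM of the JNK inhibitor JNK-IN-8 (JNKi) for 48 h (iCAFs+JNKi). All 6 conditions rest on a single library each, so no value has an error, no test could be made, and each difference below is a difference between 2 libraries. The labels do not say whether the iCAFs library received the DMSO vehicle. The conditioned medium was collected without serum, and the sources used here do not say whether serum was added before use, so factors of the cancer cells and any difference in serum cannot be told apart in iCAFs against MRC5.

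WNT ligands are secreted lipid-modified glycoproteins that bind Frizzled receptors. With LRP5 or LRP6 as co-receptor they stabilise β-catenin, which switches on target genes through TCF/LEF factors, and AXIN2 is one of the best known of these targets and a brake on the pathway. WNT5A and WNT5B are mostly known for signalling without β-catenin, in which ROR2 is a receptor and JNK a downstream kinase. SFRP proteins bind the ligands themselves, while DKK1 and DKK2 bind LRP5 and LRP6.

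Levels are given as FPKM, which the authors scaled to the length of the exons and the fragments mapped per library, and differences as log2(FPKM + 1). This scale understates differences of genes with low values. JUN was at 25.5 FPKM in control cells, 4543 with JUN WT and 291 with JUN AA, so the 2 JUN libraries also differ in the amount of JUN mRNA. All 10 fibroblast markers fixed for the check were at 8.85 FPKM or more in every library, but some differed widely between libraries. LUM was at 94.5, 24.9 and 240.1 FPKM and PDGFRB at 60.4, 13.8 and 15.8 FPKM in control, JUN WT and JUN AA. In the same order, VIM was at 1480, 2927 and 1591 FPKM and COL1A1 at 2388, 1014 and 1208 FPKM. From iCAFs to iCAFs+JNKi, COL3A1 went from 46.4 to 296 FPKM, PDGFRB from 23.1 to 74.8 FPKM and LUM from 12.1 to 52.4 FPKM. VIM went the other way, from 1655 to 1209 FPKM. The 7 epithelial and breast cancer markers summed to between 0.27 and 0.72 FPKM per library, and CDH1, KRT5, ESRP1 and GRHL2 were listed at 0 in all 6. No library of MDA-MB-231 cells was at hand to show their level of these markers, so the low values cannot show whether any cancer cells were carried over. Of 5 endothelial markers TEK alone reached 1 FPKM, in the 3 libraries of the second table, at 2.52, 3.77 and 10.4 FPKM from MRC5 to iCAFs+JNKi. Of 5 leukocyte markers CD68, a lysosomal protein gene, alone did so, at 31.1 to 85.7 FPKM and highest in JUN WT, while CD3E was listed at 0 in all 6. The part of these markers in the differences below was not tested. In bulk RNA, a smaller share of cells expressing a gene and less RNA of that gene per cell cannot be told apart.

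The family was dominated by few genes. Of the 10, 6 had a mean of at least 1 FPKM over the 3 libraries in each table (WNT5A, WNT5B, SFRP1, DKK1, DKK3 and FZD8), while WNT2, DKK2, ROR2 and AXIN2 were below it in both. DKK3 had the highest FPKM of the 10 in every library except MRC5, where SFRP1 did. Among all 19 WNT ligand genes, 3 reached 1 FPKM in any library, and they were WNT5A, WNT5B and WNT16 in each of the 6.

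**Figure D1:**
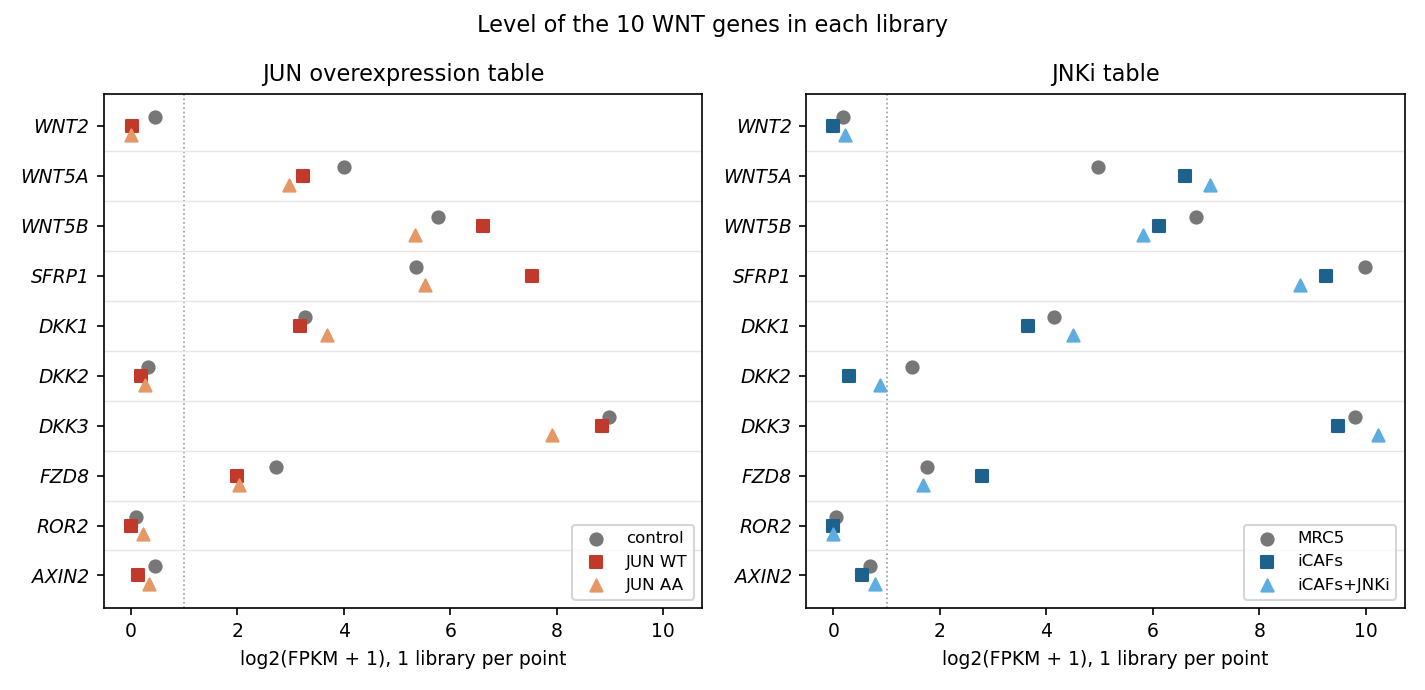
Level of each of the 10 genes as log2(FPKM + 1), with 1 point per library and the dotted line at 1 FPKM. WNT2, DKK2, ROR2 and AXIN2 stay at the left in both tables, with DKK2 in MRC5 at 1.79 FPKM the only point of these genes past the line, and SFRP1 in JUN WT at 184 FPKM stands well to the right of 39.8 FPKM in the control.

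WNT5A and WNT5B, close relatives that together held 78.9% or more of the summed WNT ligand FPKM per library, differed in opposite directions in iCAFs and in JUN WT. WNT5A, on chromosome 3 of GRCh37 from 55499743 to 55524567, was at 15.0 FPKM in control cells, 8.34 with JUN WT and 6.81 with JUN AA. It was at 30.4 FPKM in untreated MRC5, 97.0 in iCAFs and 134 after JNKi. WNT5A was thus lower with either form of JUN and higher in both iCAF libraries. WNT5B, on chromosome 12 from 1639057 to 1756378, was at 53.2 FPKM in control cells, 96.4 with JUN WT and 39.1 with JUN AA. In the second table WNT5B was at 112 FPKM in untreated MRC5, 68.0 in iCAFs and 55.2 after JNKi. WNT5B was higher in JUN WT alone and lower in both iCAF libraries. No other gene shares exon bases with either of them on the annotation used.

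The log2 change of WNT5A in iCAFs against MRC5 was 1.64, or 3.19 times the FPKM, and 0.883% of all genes compared had a change as large or larger. With JNKi it was a further 0.46 higher than in iCAFs, so the JNKi library lay farther from MRC5 and not nearer to it. The log2 change of WNT5B was -0.71 from MRC5 to iCAFs and -0.30 from there to iCAFs+JNKi. These comparisons share the iCAFs library. In the first table, WNT5A had a log2 change of -0.78 in JUN WT (-1.20 after correction for transcript length and GC content) and -1.04 in JUN AA against control, and both comparisons share the control library. WNT5B had a log2 change of 0.85 with JUN WT and -0.43 with JUN AA, and of 1.28 in JUN WT against JUN AA, which 3.13% of all genes compared reached or passed.

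The ratio of both ligands within a library does not depend on the scaling of that library. It still carries any trend of a library with transcript length and GC content. The transcript of WNT5A has 5841 bases and 41.6% GC, and that of WNT5B 2238 bases and 58.6% GC. WNT5A was at 0.283 times the FPKM of WNT5B in the control, 0.0865 times in JUN WT and 0.174 times in JUN AA. In the second table the ratio was 0.272 in untreated MRC5, 1.43 in iCAFs and 2.42 after JNKi. WNT5B was the more abundant ligand in the 3 adenovirus libraries and in MRC5, and WNT5A was so in both iCAF libraries. The summed FPKM of the 19 ligands were 77.6 in control cells, 116 with JUN WT and 54.6 with JUN AA, and 179.9 in untreated MRC5, 205 in iCAFs and 234 after JNKi. WNT5A made up 16.9% of the sum in MRC5, 47.3% in iCAFs and 57.2% after JNKi, and WNT5B 62.0%, 33.2% and 23.6%. Most of the rest was WNT16, at 7.07, 8.99 and 5.65 FPKM in control, JUN WT and JUN AA. In MRC5, iCAFs and iCAFs+JNKi it was at 35.5, 38.1 and 43.3 FPKM. WNT16 was thus above WNT5A in JUN WT and in untreated MRC5.

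**Figure D2:**
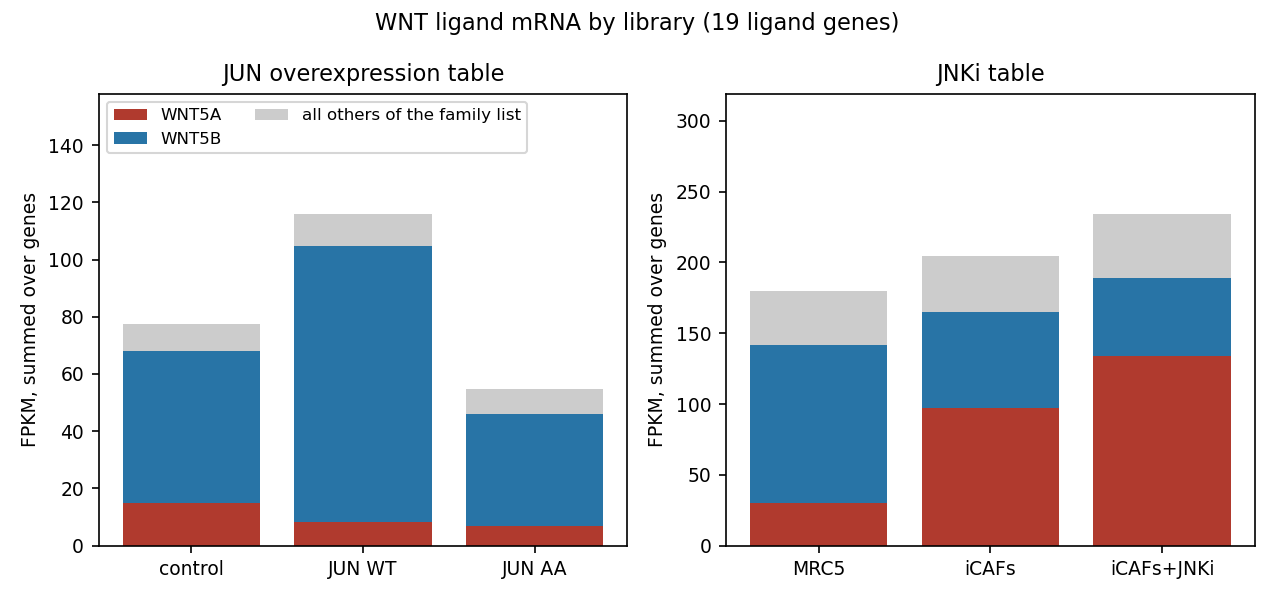
Summed FPKM of the 19 WNT ligand genes in each library, with 1 bar per library, stacked as WNT5A, WNT5B and all others, and with a separate axis for each table. WNT5B is the largest segment in control, JUN WT, JUN AA and MRC5, and WNT5A is the largest in iCAFs and iCAFs+JNKi.

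The sequences before the transcription starts of both genes are shown because these paralogues differed in opposite directions. They come from RefSeq on GRCh38.p14, a later build than the hg19 of the FPKM tables, and each gene has 2 annotated starts. Each line gives the 250 bases before the start, 5′ to 3′ on the strand of the gene. WNT5A is on the minus strand and WNT5B on the plus strand.
WNT5A, chr3:55487307-55487556: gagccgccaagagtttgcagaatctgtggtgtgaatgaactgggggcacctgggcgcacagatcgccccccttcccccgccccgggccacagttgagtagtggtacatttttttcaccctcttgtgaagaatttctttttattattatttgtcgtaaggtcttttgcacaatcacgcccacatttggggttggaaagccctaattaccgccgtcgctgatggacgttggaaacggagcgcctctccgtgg
WNT5A, chr3:55481399-55481648: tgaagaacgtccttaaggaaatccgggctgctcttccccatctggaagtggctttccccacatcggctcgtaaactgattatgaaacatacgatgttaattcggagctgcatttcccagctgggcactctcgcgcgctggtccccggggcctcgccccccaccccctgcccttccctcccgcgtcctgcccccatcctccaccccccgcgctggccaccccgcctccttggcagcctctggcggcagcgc
WNT5B, chr12:1616806-1617055: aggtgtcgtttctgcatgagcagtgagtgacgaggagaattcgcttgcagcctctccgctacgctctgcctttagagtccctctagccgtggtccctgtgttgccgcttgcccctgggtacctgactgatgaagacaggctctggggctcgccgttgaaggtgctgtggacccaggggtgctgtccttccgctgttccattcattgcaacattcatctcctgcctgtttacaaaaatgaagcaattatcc
WNT5B, chr12:1628981-1629230: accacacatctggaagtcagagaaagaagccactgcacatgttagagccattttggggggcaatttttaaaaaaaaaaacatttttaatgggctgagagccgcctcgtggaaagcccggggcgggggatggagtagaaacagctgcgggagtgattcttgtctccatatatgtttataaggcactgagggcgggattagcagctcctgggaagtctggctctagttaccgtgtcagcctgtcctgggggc

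Those windows, with the first 50 transcribed bases added, were searched on both strands for the AP-1 heptamers TGACTCA and TGAGTCA, which are reverse complements of each other, and for the TCF/LEF heptamers CTTTGAA and CTTTGAT. None of the 4 windows holds either motif, so no base is in capitals. Of all 35116 promoter windows of the same length, 4.95% hold an AP-1 heptamer and 6.86% a TCF/LEF heptamer. The windows of WNT5A hold 21 and 22 CpG and those of WNT5B 10 and 7, where the median window holds 14. Their GC content is 56.3% and 63.7% for WNT5A and 51.7% and 52.0% for WNT5B.

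WNT2, a ligand of the β-catenin pathway, was hardly detected. Its values were 0.37 FPKM in control cells, 0.014 with JUN WT and a listed 0 in JUN AA. They were 0.13 FPKM in MRC5, a listed 0 in iCAFs and 0.17 FPKM in iCAFs+JNKi. At these levels and an unknown number of reads, no difference of WNT2 could be read from single libraries. WNT2, on chromosome 7 from 116915505 to 116963206, shares exon bases with CFTR on the opposite strand.

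SFRP1, a secreted Frizzled-related protein that binds WNT ligands, had the largest difference of the 10 genes in JUN WT against control. It lies on chromosome 8 from 41119481 to 41166992 and shares exon bases with no other gene. SFRP1 was at 39.8 FPKM in control cells, 184 with JUN WT and 45.2 with JUN AA. JUN WT stood apart from the other libraries of its table, with 4.63 times the FPKM of the control and 4.08 times that of JUN AA. The log2 change of SFRP1 with JUN WT against control was 2.18, a size that 0.262% of all genes compared reached or passed. This change was 2.03 with the change of the median gene subtracted and 1.87 after correction for length and GC. Against JUN AA it was 2.003, a size that 0.824% of genes reached or passed. There it was 2.31 with FPKM rescaled and 1.43 after correction for length and GC. In JUN AA against control the log2 change of SFRP1 was 0.18, and it was -0.12 after rescaling both libraries to equal FPKM sums.

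In the second table SFRP1 was at 1009.9 FPKM in untreated MRC5, 611 in iCAFs and 435 after JNKi. Each step was lower than the last, with log2 changes of -0.72 from MRC5 to iCAFs and -0.49 from iCAFs to iCAFs+JNKi. SFRP1 was therefore higher with JUN WT and lower in iCAFs, and lower again with the inhibitor. The JUN mRNA of the same 3 libraries was 57.1, 55.3 and 21.1 FPKM. These values do not show the phosphorylation of JUN. By Western blot, the paper reports more phosphorylated JUN in iCAFs than in MRC5, with total JUN protein unchanged. It also reports that JNKi removed this rise. The part of JUN in the differences of SFRP1 was not tested.

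DKK3, a divergent Dickkopf protein, had the highest FPKM of the genes listed here as antagonists in 5 of the 6 libraries. Whether DKK3 acts as a WNT antagonist in these cells was not tested. It was at 502 FPKM in control cells, 458 with JUN WT and 239.7 with JUN AA. JUN AA was the low library, with log2 changes of -1.06 against control and 0.93 for JUN WT against JUN AA. Rescaling made these -1.38 and 1.23, and correction for length and GC made them -0.81 and 0.42, so that DKK3 was no longer past 2-fold in JUN AA. In the second table DKK3 was at 885 FPKM in untreated MRC5, 717 in iCAFs and 1195 after JNKi, and the log2 change with JNKi was 0.74. DKK3, on chromosome 11 from 11977754 to 12031316, shares exon bases with USP47 on the opposite strand, and the strand setting of the counting is not given in the sources used here.

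DKK1, the LRP5 and LRP6 antagonist, was at 8.64 FPKM in control cells, 8.01 with JUN WT and 11.8 with JUN AA. It was at 16.7 FPKM in untreated MRC5, 11.7 in iCAFs and 21.6 after JNKi. The iCAFs library was the lowest of its table, and the log2 change with JNKi was 0.83, which 3.14% of all genes compared reached or passed. In JUN WT against control the log2 change of DKK1 was -0.097, and -0.56 after correction for length and GC. DKK1 lies on chromosome 10 from 54074041 to 54077802 and shares exon bases with PRKG1-AS1 on the opposite strand.

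DKK1 was the only member with a heptamer among the 6 members (8 windows) whose promoter was in the RefSeq set and read here. The promoters of SFRP1, DKK2, DKK3 and AXIN2 were not searched. The window of DKK1 holds 1 TCF/LEF heptamer, CTTTGAA, from position -95 to -89 before the start, and no AP-1 heptamer. Of all promoter windows, 6.86% hold a TCF/LEF heptamer. The 250 bases before the start of DKK1 (GRCh38.p14, plus strand) show CTTTGAA in capitals.
DKK1, chr10:52314031-52314280: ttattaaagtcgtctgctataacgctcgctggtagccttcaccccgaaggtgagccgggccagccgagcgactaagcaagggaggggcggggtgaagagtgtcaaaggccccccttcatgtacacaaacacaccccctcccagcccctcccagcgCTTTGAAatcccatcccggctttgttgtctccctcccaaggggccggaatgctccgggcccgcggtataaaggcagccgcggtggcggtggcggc

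DKK2, like DKK1 a protein that binds LRP5 and LRP6, was at 0.25, 0.14 and 0.20 FPKM in control, JUN WT and JUN AA. In the second table it was at 1.79 FPKM in untreated MRC5, 0.23 in iCAFs and 0.84 after JNKi. MRC5 was the only library above 1 FPKM. The log2 change was -1.18 from MRC5 to iCAFs and 0.58 from there to iCAFs+JNKi, and both sizes depended on the scale, being -2.52 and 1.501 with a pseudocount of 0.1. Values this low, from single libraries, do not show a difference of DKK2. DKK2 lies on chromosome 4 from 107842959 to 108204963 and shares exon bases with no other gene.

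The 13 genes listed as secreted WNT antagonists include DKK3. Their summed FPKM came to 552 in control cells, 651 with JUN WT and 297 with JUN AA. In the second table the sum was 1915 in untreated MRC5, 1341 in iCAFs and 1653 after JNKi. SFRP1 made up 7.20%, 28.3% and 15.2% of the sum in control, JUN WT and JUN AA. Its share was 52.8% in untreated MRC5, 45.6% in iCAFs and 26.3% after JNKi, and DKK3 made up 46.2%, 53.5% and 72.3%. Within a library, the ratio of SFRP1 to DKK3 was 0.079 in control cells, 0.40 with JUN WT and 0.19 with JUN AA, and 1.14 in untreated MRC5, 0.85 in iCAFs and 0.36 after JNKi.

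**Figure D3:**
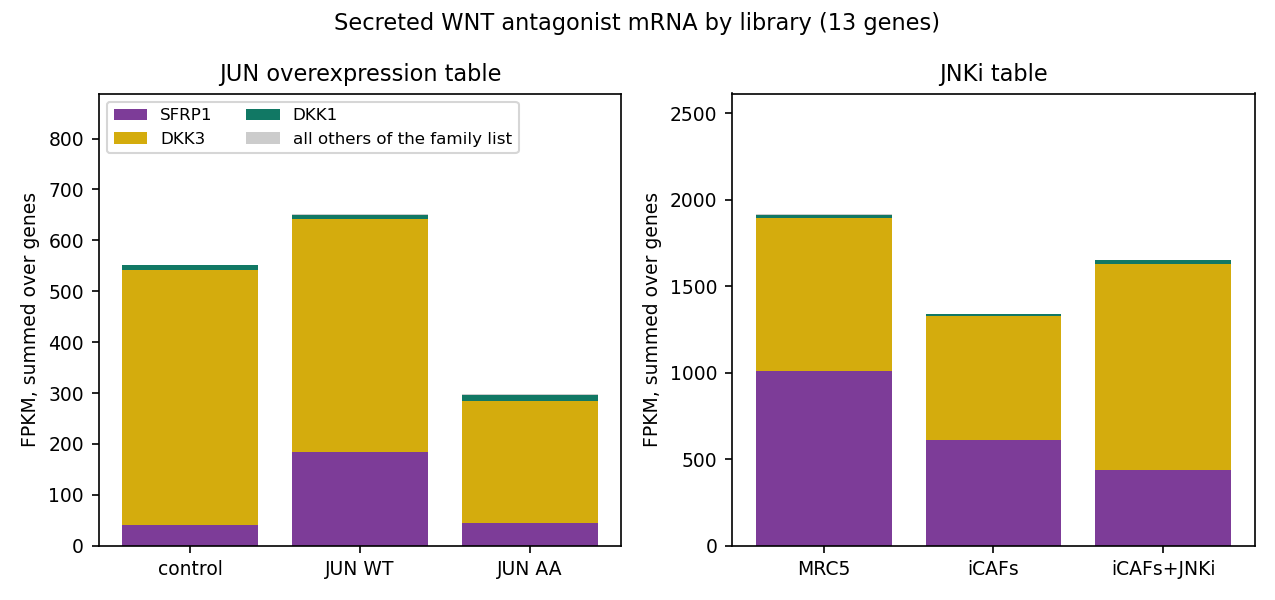
Summed FPKM of 13 genes listed as secreted WNT antagonists in each library, stacked as SFRP1, DKK3, DKK1 and all others. There is 1 bar per library and a separate axis for each table. The SFRP1 segment is tallest in JUN WT (184 FPKM) in the left panel and shrinks from 1009.9 to 435 FPKM across the right panel, where the DKK3 segment is largest in iCAFs+JNKi at 1195 FPKM.

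FZD8, a Frizzled receptor, was at 5.57 FPKM in control cells, 2.97 with JUN WT and 3.09 with JUN AA. Both JUN libraries were lower than the control, with log2 changes of -0.72 in JUN WT and -0.68 in JUN AA. The first was -0.44 after correction for length and GC, and the second -1.02 rescaled. JUN WT differed from JUN AA by -0.040, which became 0.21 rescaled and 0.17 after that correction. In the second table FZD8 was at 2.37 FPKM in untreated MRC5, 5.97 in iCAFs and 2.23 after JNKi. The iCAFs library stood alone, with log2 changes of 1.05 against MRC5 and -1.11 for iCAFs+JNKi against iCAFs, and 1.80% and 1.503% of all genes compared reached or passed these sizes. Both comparisons share that library, so its 1 high value enters both with opposite sign. FZD8, on chromosome 10 from 35927175 to 35931224, shares exon bases with MIR4683 on its own strand and with ENSG00000287528 on the other.

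ROR2, a receptor tyrosine kinase for WNT5A, was near 0 throughout. It was at 0.062 FPKM in the control, a listed 0 with JUN WT and 0.17 FPKM with JUN AA, and at 0.038 FPKM in MRC5 and a listed 0 in both iCAF libraries. ROR2 lies on chromosome 9 from 94325373 to 94712510, and no difference could be read from its values. AXIN2, the feedback gene, was at 0.36, 0.091 and 0.26 FPKM in control, JUN WT and JUN AA, and at 0.62, 0.46 and 0.71 FPKM in MRC5, iCAFs and iCAFs+JNKi. As for WNT2 and ROR2, no difference could be read at these levels. AXIN2 lies on chromosome 17 from 63524681 to 63557766 and shares exon bases with ENSG00000266076 on the same strand.

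Between 1 and 3 of the 10 were past 2-fold in each comparison. Members are counted here whatever their level, while the share of all genes is over those averaging at least 1 FPKM, which DKK2 with a mean of 0.95 FPKM did not reach. In JUN WT against control, SFRP1 alone of the 10 was at least 2-fold higher and none was 2-fold lower, where 6.92% of the 10311 genes averaging at least 1 FPKM were higher and 3.39% lower. In JUN AA against control, WNT5A and DKK3 were lower and none higher, beside 5.29% of all genes higher and 3.77% lower. In JUN WT against JUN AA, SFRP1 and WNT5B were higher and none lower, beside 6.65% and 5.61%. In iCAFs against MRC5, WNT5A and FZD8 were higher and DKK2 lower, beside 1.94% and 1.71% of 11780 genes. In iCAFs+JNKi against iCAFs, FZD8 was lower and none was higher, beside 2.25% of genes higher and 1.97% lower. The median log2 change over all 10 genes was -0.13, -0.27, -0.0098, -0.24 and 0.23 in these comparisons in turn, and that of all genes compared 0.15, -0.015, 0.18, -0.061 and -0.099. The median over the 10 includes 4 genes near 0, whose differences the scale compresses, and over the 6 members averaging at least 1 FPKM it was -0.11, -0.56, 0.60, -0.39 and 0.082.

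The balance of higher and lower genes depended on the scaling. Higher genes were 67.1% of those past 2-fold in JUN WT against control, 45.5% after centring on the median gene and 51.2% after correction for transcript length and GC content. In JUN AA against control they were 58.4%, and 26.1% after rescaling to equal sums, which moved the median gene to -0.29. In JUN WT against JUN AA they were 54.3%, 82.9% rescaled and 33.3% centred, with a median of 0.47 after rescaling. With JNKi they were 53.3%, 62.7% rescaled, 64.0% centred and 66.7% after correction for length and GC, and rescaling moved the median to 0.014.

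**Figure D4:**
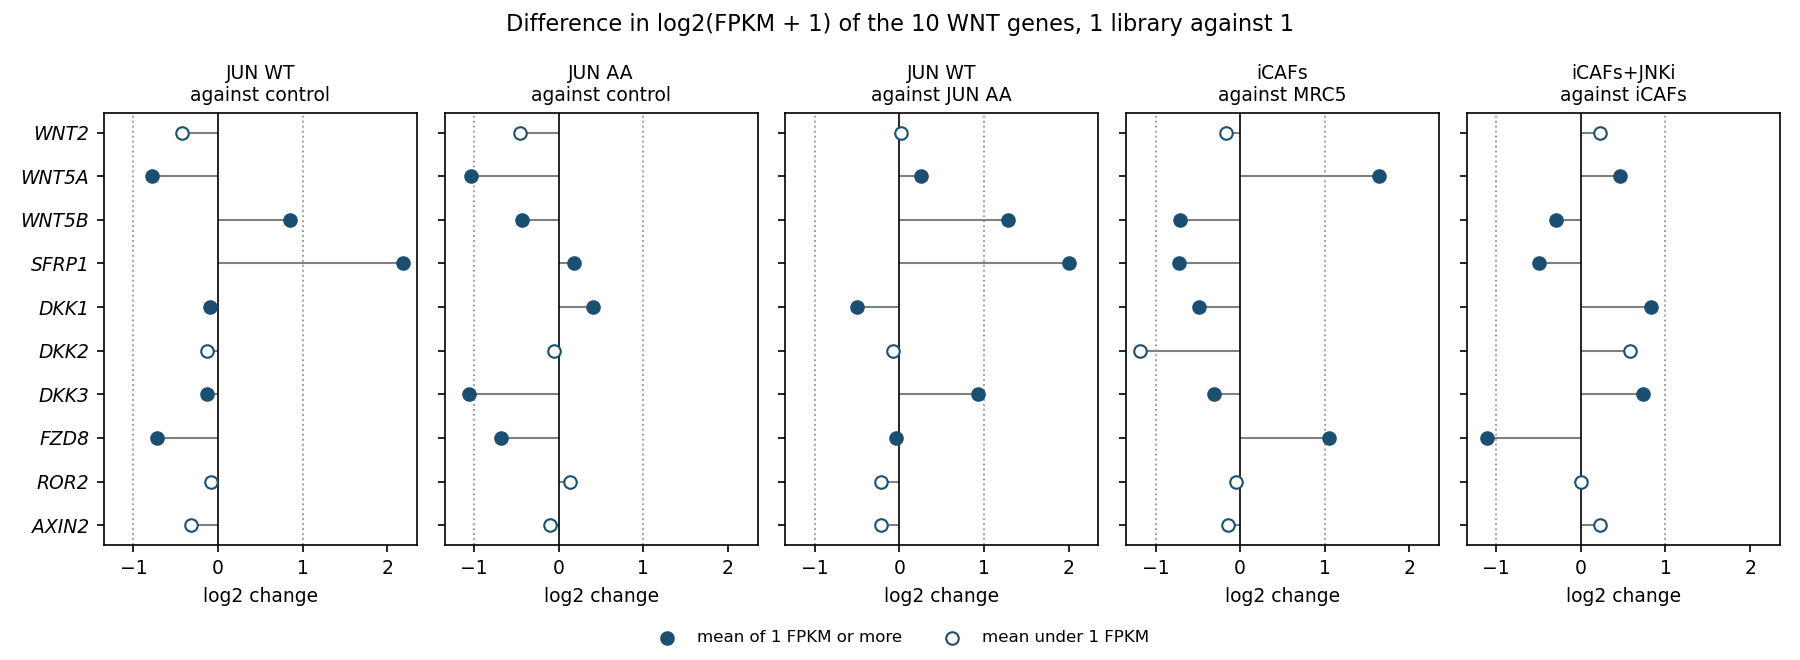
Difference in log2(FPKM + 1) of the 10 genes in 5 comparisons of 1 library with 1 library, with dotted lines at 2-fold and open points for genes with a mean under 1 FPKM in that table. SFRP1 is past the right line in both comparisons that start from JUN WT, at 2.18 and 2.003, and FZD8 changes side from 1.05 in iCAFs against MRC5 to -1.11 with JNKi.

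A further 79 genes of the pathway were followed in 7 lists. All 79 were found, 36 had a mean of at least 1 FPKM in the first table and 37 in the second. In JUN WT against control, 1 of 36 was 2-fold higher and 1 lower, in JUN AA against control 1 was higher and 0 lower, and in JUN WT against JUN AA 2 were higher and 0 lower. In iCAFs against MRC5, 0 of 37 were past 2-fold in either direction, and with JNKi 1 was higher and 0 lower. The share higher was 2.78% in JUN WT against control beside 6.92% of all genes, 2.78% in JUN AA against control beside 5.29%, 5.56% in JUN WT against JUN AA beside 6.65%, and 2.70% with JNKi beside 2.25%. The share lower was 2.78% in JUN WT against control, beside 3.39% of all genes. It was 0 in JUN AA against control beside 3.77%, and 0 in JUN WT against JUN AA beside 5.61%. With JNKi it was 0 beside 1.97%. In iCAFs against MRC5 the share was 0 in either direction, beside 1.94% of all genes higher and 1.71% lower. Counts this small do not set these genes apart from all genes. The median log2 changes of these genes were -0.082, -0.13, 0.044, 0.049 and 0.049 in the same order of comparisons.

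Among 14 other receptors, 10 passed the level of 1 FPKM in the first table and 9 in the second. PTK7, a pseudokinase co-receptor, was at 113 FPKM in control cells, 46.5 with JUN WT and 57.4 with JUN AA, and it was the receptor past 2-fold, with a log2 change of -1.27 in JUN WT. It was at 49.5, 57.5 and 97.0 FPKM in MRC5, iCAFs and iCAFs+JNKi. LGR4, a receptor of R-spondins, was at 1.18, 2.73 and 3.77 FPKM in control, JUN WT and JUN AA, with a log2 change of 1.13 in JUN AA, and at 3.69, 6.55 and 3.31 FPKM in the second table. LGR4 shares exon bases with LGR4-AS1.

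Of 8 further targets and feedback genes, CCND1, the cyclin D1 gene, was at 85.5 FPKM in control cells, 177 with JUN WT and 81.6 with JUN AA, with a log2 change of 1.04 in JUN WT against control and 1.10 against JUN AA. CCND1 shares exon bases with LTO1 on the opposite strand. MYC, which shares exon bases with CASC11, was at 6.65, 13.1 and 5.67 FPKM in the same libraries, and its log2 change in JUN WT against JUN AA was 1.08. CCND1 and MYC are also known targets of other pathways. Neither was past 2-fold once changes were centred on the median gene. CCN4, listed as WISP1 in the tables and known as a WNT1-induced secreted protein, was at 0.99 FPKM in untreated MRC5, 1.35 in iCAFs and 9.28 after JNKi. Its log2 change with JNKi was 2.13, the one of these 37 genes past 2-fold in the second table. In the first table CCN4 was at 0.87, 0.24 and 0.34 FPKM.

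The other lists held no gene past 2-fold. WLS, which carries WNT ligands to the cell surface, was at 86.6, 71.0 and 53.9 FPKM in control, JUN WT and JUN AA and at 167, 219 and 198 FPKM in MRC5, iCAFs and iCAFs+JNKi, and it shares exon bases with GNG12-AS1. KREMEN1, a membrane receptor of Dickkopf proteins placed with the antagonists, was at 1.85, 2.90 and 2.32 FPKM and at 5.33, 5.96 and 3.87 FPKM. All 18 intracellular transducers passed 1 FPKM in both tables, and their median log2 changes lay between -0.17 and -0.015 in the 5 comparisons. The transducers with the highest mean were GSK3A in the first table, at 60.8, 47.8 and 55.4 FPKM, and CSNK1A1 in the second, at 102, 95.6 and 89.6 FPKM, and both share exon bases with other genes.

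**Figure D5:**
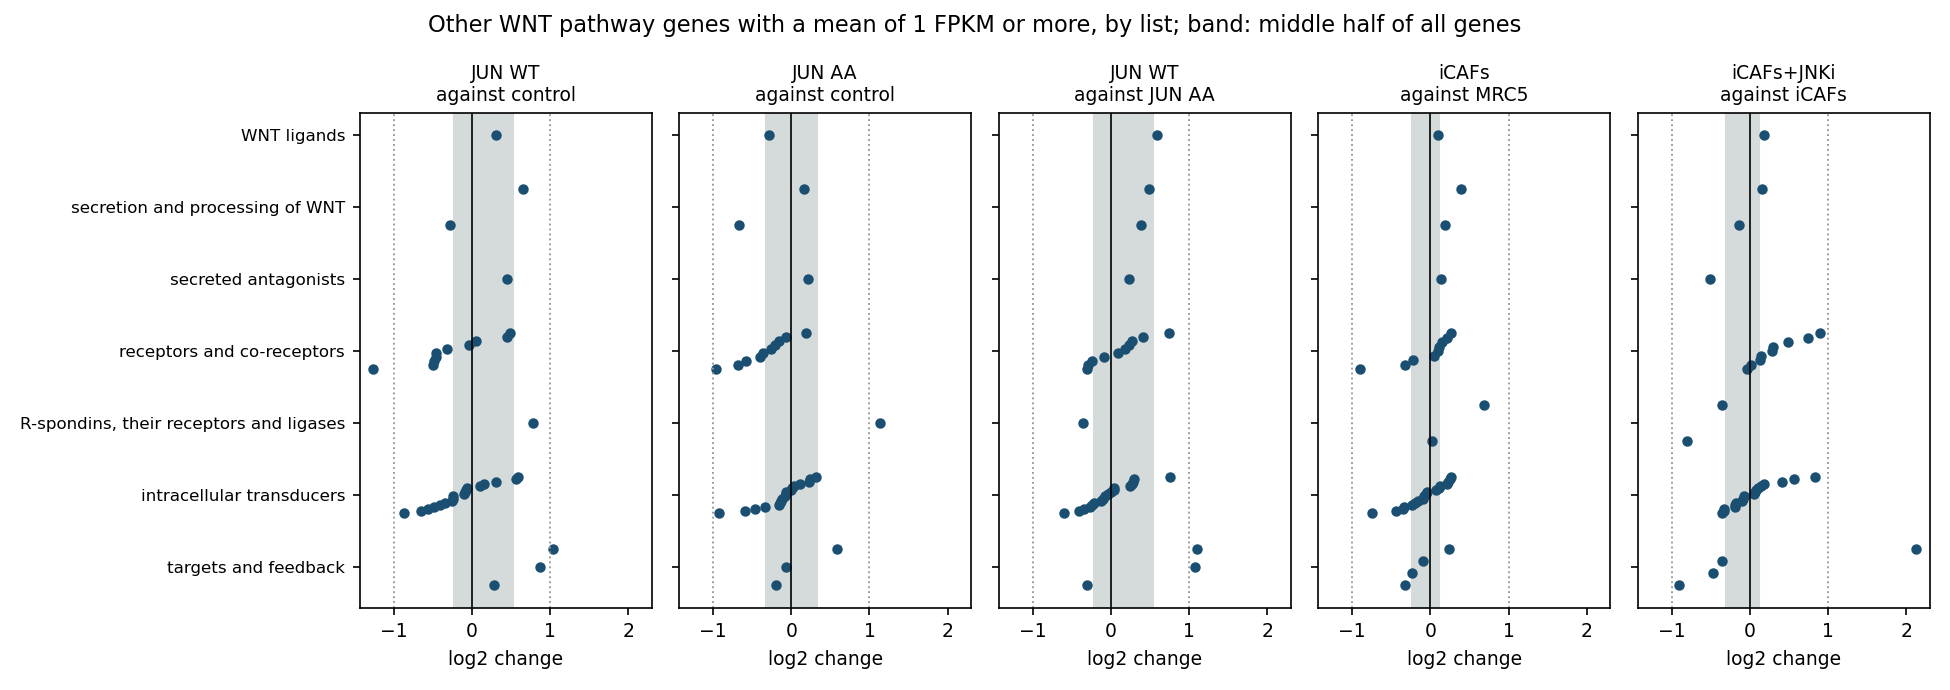
Difference in log2(FPKM + 1) of the other WNT pathway genes averaging at least 1 FPKM, 1 point per gene, by list and comparison, with dotted lines at 2-fold and a grey band for the middle 50% of all genes compared. Most points lie inside the dotted lines, and CCN4 with JNKi at 2.13 and PTK7 in JUN WT against control at -1.27 lie farthest outside them. LGR4 in JUN AA against control, CCND1 in both comparisons that start from JUN WT and MYC in JUN WT against JUN AA are also outside.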

How the data were processed

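RNA-seq data of 6 MRC5 libraries, 1 per condition, were used as 2 deposited tables of FPKM. The authors mapped reads to hg19 with HISAT2 2.1.0 at default parameters and computed FPKM per gene with StringTie 2.1.1. The annotation, strand setting and number of reads are not given in the sources used here, and the low values did not yield them, so the precision of single values is unknown. Groups came from the sample labels and columns were matched by title. The members, lists and settings were chosen with earlier results of these data known.

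Of rows sharing a symbol, the one with the highest mean was kept. Differences of log2(FPKM + 1) were taken (Python 3.11.15, numpy 2.4.6, pandas 2.3.3) for 5 comparisons, each within its table, since the tables were normalised separately. The background was all genes averaging at least 1 FPKM over the 3 libraries of a table, and a gene counted at a log2 change of 1 or more in size. No test was made. Named genes are all 10 members, and of the 79 other pathway genes those past 2-fold in any comparison and the one with the highest mean of each list. JUN and the markers are checks. CCN4 was matched through a synonym in RefSeq. Positions and shared exon bases come from GENCODE on GRCh37, the build also called hg19, and promoter sequences from RefSeq on GRCh38.p14. The other settings tried used 0.1 as pseudocount, libraries scaled to a total of 1000000, centring on the median gene, summed rows and, for counts over all genes and the other pathway genes, no filter or a filter of 5 FPKM. A correction for transcript length and GC content, by the median change of genes in 20 bins by each, came later, with the values already known. Figures were drawn with matplotlib 3.10.9.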

Additional observations from a re-analysis of the deposited data

How the results depend on the processing

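No paired analysis was possible because each condition has 1 library and the labels give no replicate numbers, and for the same reason no library could be left out. A value was taken to have moved at a shift of over 0.25 on the log2 scale or 1.5 times for counts. With a pseudocount of 0.1, members at least 2-fold lower were 2 in JUN WT against control (WNT2 and AXIN2), 1 in JUN WT against JUN AA (ROR2) and 2 in iCAFs against MRC5 (WNT2 and DKK2), and 2 were higher in iCAFs+JNKi against iCAFs (WNT2 and DKK2), all of them genes under a mean of 1 FPKM. With FPKM rescaled, 1 member was higher in iCAFs+JNKi against iCAFs (DKK2). Counts that went from 2 to 3 were not over the limit and so not taken as moved. Members lower in JUN AA against control did so, with WNT2 at the smaller pseudocount (-2.23) and FZD8 rescaled (-1.02). Members higher in JUN WT against JUN AA did so with DKK3 rescaled (1.23). After the correction for length and GC, chosen once the data had been seen, 2 were higher and 1 lower in JUN WT against control (WNT5B joining SFRP1, and WNT5A), 1 was lower in JUN AA against control (WNT5A, with DKK3 lost), and 1 was higher with JNKi (DKK1). Centring and summed rows moved none of the members' counts, and no member past 2-fold changed sign under any of these 5 settings. Over all genes, 714 were higher and 350 lower in JUN WT against control, which became 1229 and 527 with a pseudocount of 0.1, while 436 were higher with centring and 458 with a filter of 5 FPKM. In JUN AA against control, 545 higher and 389 lower became 338 and 957 with rescaling, and 629 were lower with the smaller pseudocount. In JUN WT against JUN AA, 686 higher and 578 lower became 1770 and 364 with rescaling, and the higher ones 1151, 411 and 438 with the smaller pseudocount, centring and the stricter filter. In iCAFs against MRC5, 202 lower became 356 and 128 with the smaller pseudocount and the stricter filter, and with JNKi 265 higher and 232 lower became 411 higher with rescaling, 386 lower with the smaller pseudocount and 169 and 147 with the stricter filter. The length and GC correction was made over the 9393 and 10648 genes of the 2 tables with a matched transcript, so the correction and the smaller set cannot be told apart, and it left 344 higher in JUN WT against control, 290 higher and 251 lower in JUN AA against control, 361 higher in JUN WT against JUN AA and 144 lower with JNKi. Of the other pathway genes, JUN WT against control had 2 higher with the smaller pseudocount and 0 higher and 2 lower with centring, JUN AA had 1 lower with the smaller pseudocount, 3 lower rescaled and 0 higher with the stricter filter, JUN WT against JUN AA had 4 higher rescaled and 0 with centring, and JNKi had 3 higher with the smaller pseudocount, 3 rescaled and 0 with the stricter filter. The cause of these shifts was not tested.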

Other observations

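The values in this part were chosen after they were seen. Of the β-catenin pathway, LEF1, a transcription factor that β-catenin binds, was at 1.45 FPKM in untreated MRC5, 1.91 in iCAFs and 4.16 after JNKi, with a log2 change of 0.83 with JNKi. CTNNB1, the β-catenin gene, was at 87.3, 95.4 and 90.3 FPKM in the same libraries. In the first table CTNNB1 was at 31.8 FPKM in control cells, 48.6 with JUN WT and 28.3 with JUN AA. LEF1 was at 1.20, 1.09 and 1.02 FPKM in the same libraries, and it shares exon bases with LEF1-AS1 on the opposite strand.

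Among Frizzled receptors, FZD2 was at 35.5 FPKM in untreated MRC5, 18.6 in iCAFs and 23.2 after JNKi, a log2 change of -0.89 in iCAFs where that of FZD8 was 1.05. FZD6 was at 23.6, 25.3 and 35.99 FPKM and FZD4 at 2.81, 2.06 and 4.70 FPKM in the same order. FZD6 shares exon bases with BAALC-AS1 and FZD4 with PRSS23, both on the opposite strand. In the first table FZD2 was at 31.9, 23.1 and 19.5 FPKM in control, JUN WT and JUN AA, and FZD7 at 14.5, 14.1 and 12.4 FPKM.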
